A study of Homo sapiens with 9 samples.

Results

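Readthrough regions shorter than 9000 bases that lie behind hosts with protein-coding style names were examined in HEK293 cells, an established human embryonic kidney line, with and without UBE3D. A readthrough region, also called a downstream-of-gene region, is the stretch beyond a gene's annotated 3′ end in which RNA was still counted. The members were taken from the authors' deposited table of readthrough regions by length and name alone. They do not lie on chromosome 19, are under 9000 bases long, and carry no name of a microRNA, small nucleolar, small Cajal body or spliceosomal RNA gene, of a LINC, LOC or SNHG gene, or of a numbered antisense gene. This left 745 of 2541 regions in the comparison of KO with WT and 673 of 2396 in the comparison of addback with KO. KO cells had UBE3D knocked out by CRISPR/Cas9, addback cells are labelled as UBE3D addback, and WT cells are labelled as UBE3D WT. Each group has 3 libraries of poly(A) RNA, all from HEK293 cells grown in DMEM with fetal bovine serum. Every sample is marked as pooled, with no word on separate cultures or clones, so p-values measure only the spread between these libraries, which may be technical.

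Transcripts of protein-coding genes end where the cleavage and polyadenylation machinery reads a signal, usually the hexamer AAUAAA or a close variant, and cuts the RNA a short way behind it. The cut is made by CPSF3 (CPSF73), and RNA polymerase II goes on transcribing until termination. When cleavage or termination is late, RNA continues past the annotated end and can be counted in a readthrough region. UBE3D encodes a ubiquitin ligase of the E3 class, and the libraries compare cells without it, with it and with it added back.

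That signal was looked for in the last 30 bases of the hosts' annotated transcripts. Those of 12 hosts the results turn on are given here, 5′ to 3′ with T for U. They come from GENCODE v29 transcripts (hg38) that end within 10 bases of the region's start, and capitals mark AATAAA or ATTAAA. The first 7 hosts have a region that was higher in KO than in WT, the next 3 one that was lower, and the last pair one that was higher in addback than in KO.
HECTD3 (chr1:45002540-45002569, minus strand): gttgAATAAAtggatgaattcattccttca
DESI1 (chr22:41598028-41598057, minus strand): aatgcAATAAActcatttctgcctgctgca
PTPRA (chr20:3038639-3038668, plus strand): ctatcaggtAATAAAagctttgactccctg
SMO (chr7:129213516-129213545, plus strand): aatacagtcAATAAAaggtttttgtataaa
NARF (chr17:82488236-82488265, plus strand): gagtATTAAAgacacttaagaaaaccgctc
SRM (chr1:11054589-11054618, minus strand): cactcaccaaacacgtgtatttatagcaaa
ACTR10 (chr14:58235607-58235636, plus strand): ttgtttttaatgaactacctcttgttgaaa
POU3F3 (chr2:104858545-104858574, plus strand): gatcgagaaAATAAAtttgttagaatgaaa
SOX5 (chr12:23532298-23532327, minus strand): ttacatataAATAAAaaaagaatccctttt
C14orf119 (chr14:23100433-23100462, plus strand): gcttAATAAAtttaatttcaaacatccgga
IFIT5 (chr10:89420972-89421001, plus strand): ctctAATAAAagctgcctgagttgaattgt
IFIT1 (chr10:89406457-89406486, plus strand): tcgctctttcAATAAAtcttgctgctgctc

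Neither hexamer is in the last 30 bases of SRM and ACTR10. Over the 480 members whose host has such a transcript, 51.0% hold AATAAA on the transcribed strand, 15.6% hold ATTAAA and not AATAAA, and 33.3% hold neither. Among 14071 genes of the count table with a transcript end the shares were 57.1%, 12.8% and 30.1%. Of the 118 members called higher in KO than in WT, 58.5% hold AATAAA and 22.9% neither. Of the 64 called lower, 43.8% hold AATAAA and 42.2% neither. The 207 members with signal that were not called lie between them, at 49.3% and 35.7%. These are counts of letters in a window, given without a test, and 265 members have no matched transcript.

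Total counts per library ran from 23088295 to 37508780. UBE3D RNA was measured at 13.2, 15.8 and 14.4 scaled CPM (read counts relative to library size, with scaling factors from the low-background genes defined below) in KO, at 19.5, 21.4 and 26.6 in WT and at 3348, 3294 and 2744 in addback, so UBE3D reads were still counted in KO libraries and the groups do not overlap. The fold of UBE3D in KO against WT was -0.63 ± 0.13 on the log2 scale (edgeR adjusted p = 0.00405), and with scaling over all genes it was -0.28 and no longer called. CPSF3 lay between 118 and 121 CPM in KO, 103 and 114 in WT and 109 and 113 in addback. All 12 markers of HEK293 cells were at 1 CPM or more in every library. Of 8 blood cell markers, 1 to 2 reached 1 CPM in KO libraries and 7 to 8 in WT and addback libraries. In the same way, 4 of 8 fibroblast markers reached 1 CPM in KO and 7 to 8 in the others, and 3 to 4 of 8 breast epithelial markers did in KO and 6 to 8 in the others. Across 623 genes restricted to other tissues, such as odorant receptors, KO libraries held 578 to 800 counts and WT and addback libraries 12302 to 56273. This library background moves with the KO comparisons, and its part in the region results was not tested. Genes whose expected background was at most 10% of their level, and whose coding sequence made up at least 10% of their exons, are called low-background (7501 of 21994 tested), and 455 of the 743 member hosts are among them.

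The short regions ran from 4000 bases (behind NARF) to 8995 bases (behind TMEM30A), with a median of 6400 and quartiles of 5375 and 7600. What lies at the far end divides them into 3 kinds: 319 end at a whole step of 200 bases with no gene there, 241 end at the next gene on the same strand, and 185 end at the next gene on the opposite strand. The base mean is the authors' own average level of a region, and the libraries and scaling behind it are not stated. By this value in the authors' deposited table, 140 members hold almost no signal (base mean under 10), and all 140 end at a gene on the opposite strand. In the whole table, 270 of the 545 regions of that kind are near-empty, and none of the others is. Of the 140 near-empty members, 60 overlap a region listed on the other strand, against 2 of the other 605 members that overlap any region. No source used here says whether reads were counted by strand. The 72 members not listed for addback against KO have a base mean of at most 0.333 in the authors' deposited table for KO against WT.

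**Figure D1:**
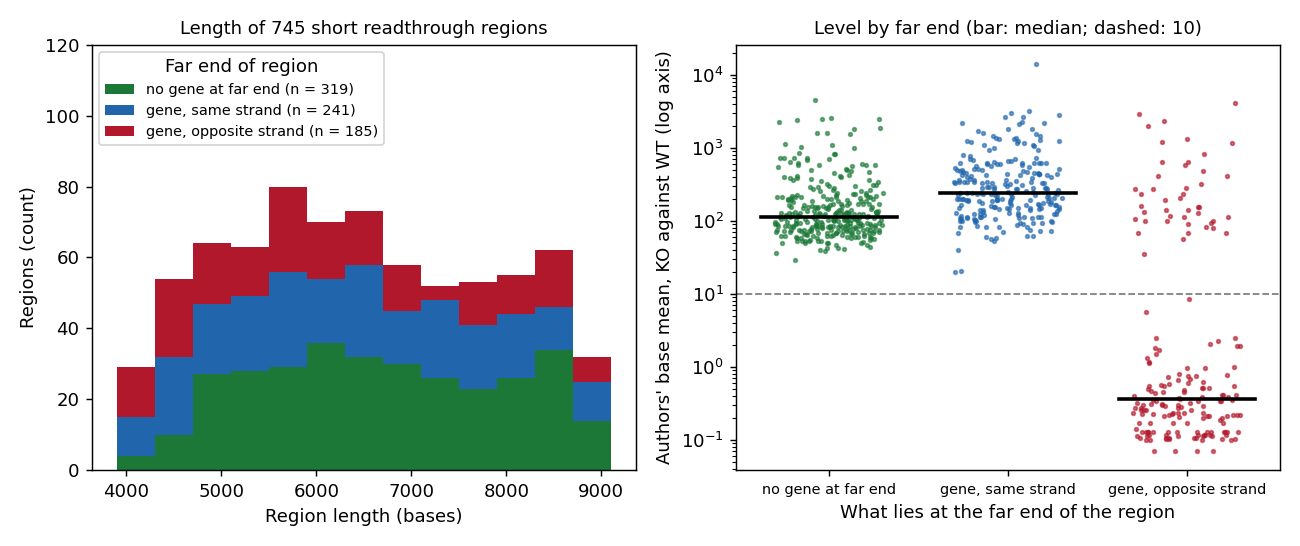
Left: number of short readthrough regions by length in bases (bins of 400 bases), coloured by what lies at the far end. Right: the authors' base mean in the comparison of KO with WT for each region on a log axis, with a bar at the median of each kind. The regions that end at a gene on the opposite strand split into 45 above a base mean of 10 and 140 below it, and the other kinds all lie above it.

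Among the 605 members with signal, base means in the authors' deposited table had quartiles of 93.2, 159 and 353, and the highest was 14058 behind HOXD11, a homeobox gene of limb and body-axis patterning. The median base mean over all members was 122, against 258 for the whole table and 387 for coding-named regions of 9000 bases or more. Per kilobase the order was different: members with signal had a median base mean of 24.2 per kilobase and all regions with signal one of 20.5. Among members with signal, those that end at a gene on the same strand were the most strongly covered per kilobase, at 39.9. Those that end at an opposite-strand gene had 25.2, and those with no gene at the far end the least, at 17.6. With near-empty ones included, the 185 members that end at an opposite-strand gene had a median base mean of 0.357. The length limit cuts through a continuous range. Just inside it are HNRNPA1L2 (8913 bases, log2 fold in KO against WT of 0.08), EXOSC2 (8988 bases, -0.71) and TMEM30A (8995 bases, 0.01), and just outside it are ALG13, BAMBI and FBXO8 at 9000 bases (0.13, 0.22 and 0.51), all folds from the authors' deposited table.

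The first comparison asks which short regions carry more or less RNA when UBE3D is missing. In KO against WT, 172 members were higher and 126 lower at the authors' adjusted p under 0.05, where 24.8% of all regions tested were higher and 25.0% lower. Called members in either direction made up 40.0% of the 745, against 49.8% of all regions. With near-empty regions set aside the shares were 49.3% and 55.7%. Higher calls were 57.7% of the called members and 49.9% of all called regions. The median log2 fold of members with signal was 0.07, against -0.00 over all regions with signal. A fold of at least 1 with a call was found in 48 members in the higher direction and 15 in the lower, beside 5.23% and 2.83% of all regions. No near-empty member was called. The smallest fold called was 0.17 in absolute size and the median 0.65, all by the authors' deposited table. The region tables hold 1 value per comparison and none per library, so only the authors' standard errors, given after ±, describe the spread.

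Calls in KO against WT differed with how much signal a region had. Split into 3 levels of base mean, the lowest level (202 members, 19.9 to 109.9) had 63 higher and 13 lower calls, with a median log2 fold of 0.31. The middle level had 53 higher and 46 lower with a median of 0.05. The highest level (202 members, 246 to 14058) had 56 higher and 67 lower calls and a median of -0.09. This split by level was not made over all regions, so nothing particular to the short regions is read from it. How the regions were called is not stated, so whether weakly covered ones were listed only through the group where they are high cannot be told. The kind of far end divided them too: regions with no gene at the far end had 101 higher and 55 lower (median 0.17), those ending at a gene on the same strand 62 and 58 (0.01), and the 45 with signal that end at an opposite-strand gene 9 and 13 (-0.07). The whole table, which includes the members, had 340 higher and 286 lower among 1166 regions of the first kind (median 0.06), 221 and 262 among 829 of the next (-0.06), and 70 and 86 among 545 of the last (-0.05 over those with signal). Members of low-background hosts had 132 higher and 51 lower calls (median 0.18), and members of other hosts 40 and 75 (-0.13). Thus 75 of the 126 lower calls lie behind hosts that are not low-background. The split by host background was not made over all regions either, and nothing particular to the short regions is read from it. These counts all rest on the authors' deposited table.

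**Figure D2:**
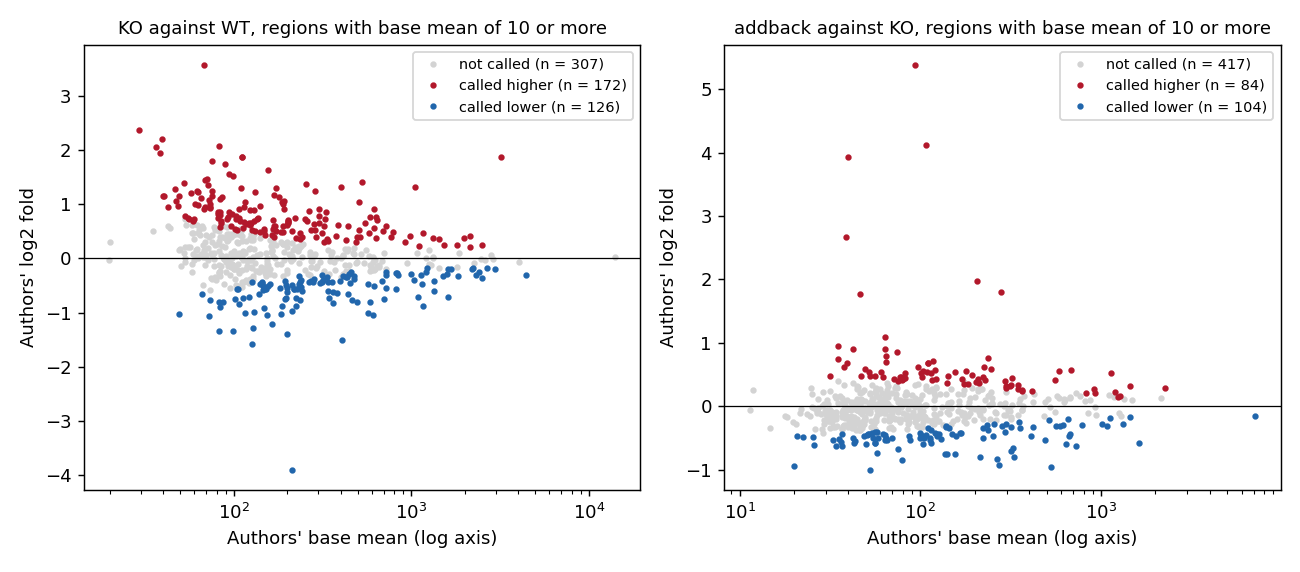
Authors' log2 fold against the authors' base mean (log axis) for the 605 short regions with a base mean of 10 or more in KO against WT, left for KO against WT and right for addback against KO. Red points are the 172 and 84 regions called higher, blue points the 126 and 104 called lower, and the higher calls of KO against WT reach larger folds at low base means.

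The region behind SP140L, which encodes a bromodomain protein of the speckled protein family, had the largest rise in KO in the authors' deposited table (chr2:230403731-230410930, plus strand, log2 fold 3.58 ± 0.50, adjusted p = 1.4e-11). Its host was at 3.73, 7.83 and 16.5 CPM in WT and 3.40, 2.04 and 3.13 in KO. With this scaling host RNA was thus lower in every KO library while the region was higher. SP140L is not low-background. In bulk RNA, fewer cells making a transcript and less of it per cell cannot be told apart. Behind ACTR10, a subunit of the dynactin complex that works with the dynein motor, the authors' deposited table gives 2.21 ± 0.37 (chr14:58235636-58241035, adjusted p = 2.9e-08). ACTR10 RNA was at 73.9, 77.3 and 73.2 CPM in KO and 58.3, 54.9 and 60.6 in WT, without overlap (edgeR log2 fold 0.37 ± 0.05, adjusted p = 0.000841). SMO encodes Smoothened, the signal transducer of the Hedgehog pathway, and its region rose by 2.07 ± 0.27 in the authors' deposited table (chr7:129213545-129219944, adjusted p = 2.1e-13). SMO RNA itself was lower in all 3 KO libraries, with 55.3, 54.5 and 58.7 CPM against 83, 83.8 and 76.3 in WT. The edgeR log2 fold of SMO was -0.53 ± 0.05 (adjusted p = 0.00034), and with scaling over all genes it was -0.20 and not called.

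Regions with higher base means gave tighter values. The region behind EIF1, the factor that guards start codon selection, rose by 1.31 ± 0.11 in the authors' deposited table (chr17:41691647-41697046, plus strand, base mean 403, adjusted p = 7.9e-29). EIF1 RNA was at 429.6, 422 and 425 CPM in KO and 369, 353 and 349 in WT (edgeR log2 fold 0.25 ± 0.04, adjusted p = 0.00165), where the region's fold was 1.31. DESI1 encodes a SUMO isopeptidase, and the authors' deposited table gives its region 1.31 ± 0.09 (chr22:41589867-41598028, minus strand, base mean 1043, adjusted p = 3.5e-46). DESI1 RNA was at 76.7, 78.4 and 78.3 CPM in KO, below 88.4, 87.6 and 83.8 in WT. Behind SRM, the spermidine synthase gene, the region rose by 1.41 ± 0.14 in the authors' deposited table (chr1:11047239-11054592, adjusted p = 9.6e-22). SRM RNA was at 127, 140.5 and 118.9 CPM in KO and 113, 106 and 102 in WT. HECTD3 encodes an E3 ubiquitin ligase, and its region, with a lower base mean of 99.6, rose by 1.52 ± 0.25 in the authors' deposited table (chr1:44997149-45002548, adjusted p = 2e-08). HECTD3 RNA overlapped between groups, with 52.3, 56.8 and 57.1 CPM in KO and 55.1, 63.7 and 56.7 in WT. The region behind CETN3, a centrin of the centrosome, rose by 1.63 ± 0.20 and the one shared by PTPRA, a receptor tyrosine phosphatase, and VPS16, a subunit of endosomal tethering complexes, by 1.04 ± 0.10 in the authors' deposited table. CETN3 RNA ranged from 29.4 to 32.2 CPM in KO and 27.6 to 33.3 in WT, and PTPRA RNA from 131 to 139 in KO and 129.6 to 140.4 in WT, so both hosts overlapped. Whether these hosts lay above, below or level with WT rests on the scaling by low-background genes. Factors from all genes would shift log2 folds of KO against WT up by 0.34 on the whole, and gave 0.59 for EIF1.

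Further members among the 10 largest rises lie behind COL20A1, a collagen gene (2.37 ± 0.49), DNAJB5, a J-domain co-chaperone gene (2.07 ± 0.45), NLGN3, a synaptic adhesion gene (1.95 ± 0.42), and OAS3, an interferon-induced oligoadenylate synthetase gene (1.79 ± 0.55), by the authors' deposited table. These 4 have base means of 29.1 to 75.1. The remaining 3 lie in the histone cluster of chromosome 1, whose genes normally make RNA without a poly(A) tail. The region behind HIST2H2BC (chr1:149842751-149850192, minus strand, base mean 3218) had a log2 fold of 1.88 ± 0.07 and the smallest adjusted p of all named members, 2.4e-168, in the authors' deposited table. Its host was at 4.29, 2.59 and 4.61 CPM in KO and 0.505, 0.838 and 1.22 in WT. The region ends at a histone gene that the annotation lists under the near-identical copies HIST2H2AA3 and HIST2H2AA4, so its values are uncertain. The pair of regions named HIST2H3A and HIST2H3C carry identical values in the authors' deposited table (1.87 ± 0.26 each), lie behind near-identical gene copies and count as 1 measurement, and HIST2H3A is listed with 0 counts in all 9 libraries.

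The lists by host function are small, so their counts are given as descriptions beside the 24.8% of all regions that were higher and the 25.0% that were lower, and nothing particular to a list is read from them. Grouped by what their hosts do, 4 of 5 regions behind genes of translation factors and a tRNA synthetase rose in KO and none fell. They were EIF1, EIF3H (0.88 ± 0.14), EIF2B3 (0.63 ± 0.14) and the synthetase gene KARS (0.54 ± 0.19), while EIF2B4 stood at -0.19 ± 0.10. Both regions with signal behind ribosomal protein genes rose, RPL15 by 0.74 ± 0.25 and RPL34 by 0.59 ± 0.25, and the one behind RPS4X is near-empty. All values of these lists come from the authors' deposited table, and the lists were drawn up with earlier results known. Of 15 regions behind genes of the mitochondrial ribosome and respiratory chain, 5 rose and 2 fell, with MRPL12 at 0.36 ± 0.09 and COX7B at 0.72 ± 0.15 on one side and MRPL50 at -0.62 ± 0.14 on the other, by the authors' deposited table. Cell cycle hosts had 2 rises among 8 regions, CDC6 of replication licensing (0.86 ± 0.12) and MCM3 of the replicative helicase (0.78 ± 0.23), and no fall, in the same deposited table of the authors. The stress transcription factor ATF4 had a region that rose by 0.63 ± 0.23 in the authors' deposited table.

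Of 23 regions behind hosts that encode zinc finger proteins, 6 fell, 1 rose and the rest were not called, beside 25.0% lower and 24.8% higher over all regions. Their median log2 fold with signal was -0.15, and the fallers include ZBTB26 (-1.05 ± 0.10), ZNF785 (-0.88 ± 0.16) and ZNF623 (-0.31 ± 0.10) in the authors' deposited table. The riser was ZNF593 at 1.06 ± 0.22 in the authors' deposited table, and its host is low-background, while 5 of the 6 that fell have hosts that are not. Chaperone hosts divided evenly, 3 up and 3 down of 10, with PPIG at -0.31 ± 0.07 and HSPA1B at 0.37 ± 0.13 in the authors' deposited table. Ubiquitin and proteasome hosts were also even, 3 and 3 of 13, with UBE3A, the ligase gene of the Angelman locus, at -0.997 ± 0.21 and UBA6, an E1 enzyme gene, at -0.45 ± 0.17 by the authors' deposited table. RNA binding and splicing hosts had 4 and 4 of 13, with SF3B1 of the U2 particle at 0.24 ± 0.07 and the polymerase I subunit gene POLR1B at -0.26 ± 0.09 in the authors' deposited table. Among 14 kinase and phosphatase hosts 4 rose and 2 fell, among 18 transporter hosts 1 rose and 2 fell, and among 9 transmembrane protein hosts 3 fell and none rose. The region behind ELOVL6, a fatty acid elongase gene, had a called log2 fold of -0.42 ± 0.10, and neither region of the p53 target list was called, all in the authors' deposited table.

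The largest fall in KO was behind C14orf119 (chr14:23100457-23107656, plus strand, log2 fold -3.91 ± 0.59, adjusted p = 3.4e-10 in the authors' deposited table). Of its 7200 bases, 2159 are annotated as coding exon of LMLN2 in GENCODE v29, so readthrough, RNA of LMLN2 and library background cannot be told apart there. The background, a median over tissue-restricted genes, was 0 counts per coding kilobase in KO libraries and 22.7 to 107 in WT and addback libraries. C14orf119 RNA itself was higher in KO, with 38.9, 38.6 and 37.6 CPM against 31.5, 30 and 28.7 in WT (edgeR log2 fold 0.35 ± 0.06, adjusted p = 0.00152). The neural transcription factor gene POU3F3 had a region that fell by 1.52 on the log2 scale (standard error 0.13, chr2:104858574-104865498, base mean 407, adjusted p = 5.1e-29) in the authors' deposited table. POU3F3 RNA fell with it, from 79.1, 63.4 and 69.7 CPM in WT to 32.8, 29.8 and 37.1 in KO (edgeR log2 fold -1.09 ± 0.10, adjusted p = 0.000211). Behind SOX5, another developmental transcription factor gene, the authors' deposited table gives -1.39 ± 0.19, and SOX5 RNA was at 13.1, 20.9 and 30.7 CPM in WT and 4.0, 2.88 and 4.61 in KO (edgeR log2 fold -2.49 ± 0.39, adjusted p = 0.00153). SOX5 is not low-background.

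Other falls among the 10 largest were behind FRG2, a subtelomeric gene with near-identical copies (-1.58 ± 0.21), the Rac exchange factor gene PREX2 (-1.34 ± 0.23), RASSF9 (-1.34 ± 0.26), the syntaxin gene STX16 with NPEPL1 (-1.29 ± 0.25), ERV3-1 with ZNF117 (-1.21 ± 0.18), ZNF597 (-1.06 ± 0.26) and ZBTB26, in the authors' deposited table. ZBTB26 RNA was at 8.25, 7.14 and 9.24 CPM in KO and 13.4, 15.4 and 15.7 in WT, so region and host were both lower (edgeR log2 fold of the host -0.85 ± 0.18, adjusted p = 0.00327). Among the called members with the highest base mean, CCDC134 had -0.19 ± 0.07, WHSC1L1 (a histone methyltransferase gene) -0.17 ± 0.07 and ATPAF1, an ATP synthase assembly factor gene, 0.25 ± 0.07, in the authors' deposited table.

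The cleavage machinery has 3 hosts among the short regions, and only that of PCF11, a subunit of cleavage factor II that also acts in termination, was called. Its region (chr11:83185794-83193740, plus strand, base mean 464) had a log2 fold of -0.77 ± 0.12 in the authors' deposited table (adjusted p = 6.7e-09). PCF11 RNA went the other way, with 99.5, 97.4 and 103 CPM in KO against 74.3, 73.9 and 90.0 in WT (edgeR log2 fold 0.34 ± 0.07, adjusted p = 0.00403). The region behind CSTF1 stood at 0.12 ± 0.13 in the authors' deposited table and was not called, and that behind CSTF3 is near-empty. As genes, 11 of 21 cleavage and polyadenylation factors were called higher in KO against WT and 3 lower by edgeR, with a median log2 fold of 0.13, where 9.39% of all genes were higher and 52.6% lower and the median was -0.47. Among low-background genes 23.3% were higher and 26.3% lower, and factors from all genes would shift log2 folds up by 0.34 on the whole. Of 20 termination and pausing factors 7 were higher and 6 lower.

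Region and host were then set side by side. Of 740 hosts tested, edgeR called 122 higher and 245 lower in KO against WT at an adjusted p under 0.05. These counts turn on the scaling, since factors from all genes in place of low-background genes shift log2 folds up by 0.34 on the whole and give 300 higher and 86 lower. Among low-background hosts alone 106 were higher and 114 lower, beside 23.3% and 26.3% of all low-background genes. Of 170 higher regions with a tested host, 52 hosts were higher, 26 lower and 92 not called, and the median host fold was 0.03 on the log2 scale while the median region fold was 0.73. For the 126 lower regions, 6 hosts were higher, 68 lower and 52 not called, with a median host fold of -0.43 and a median region fold of -0.53. Restricted to low-background hosts, the 132 higher regions had 47 higher and 18 lower hosts and the 51 lower regions had 5 and 16. Across 602 members with signal the region's log2 fold minus the host's had a median of 0.32 (quartiles 0.01 and 0.80), against 0.25 over 2233 regions of the whole table. That offset is not fixed by the data: with host folds scaled over all genes it was -0.0300, and with host folds from the authors' deposited table of genes 0.0472. Spearman's rho between region and host folds was 0.38 over these 602 members and 0.25 over the 373 with a low-background host. It is a description over regions measured in the same libraries.

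**Figure D3:**
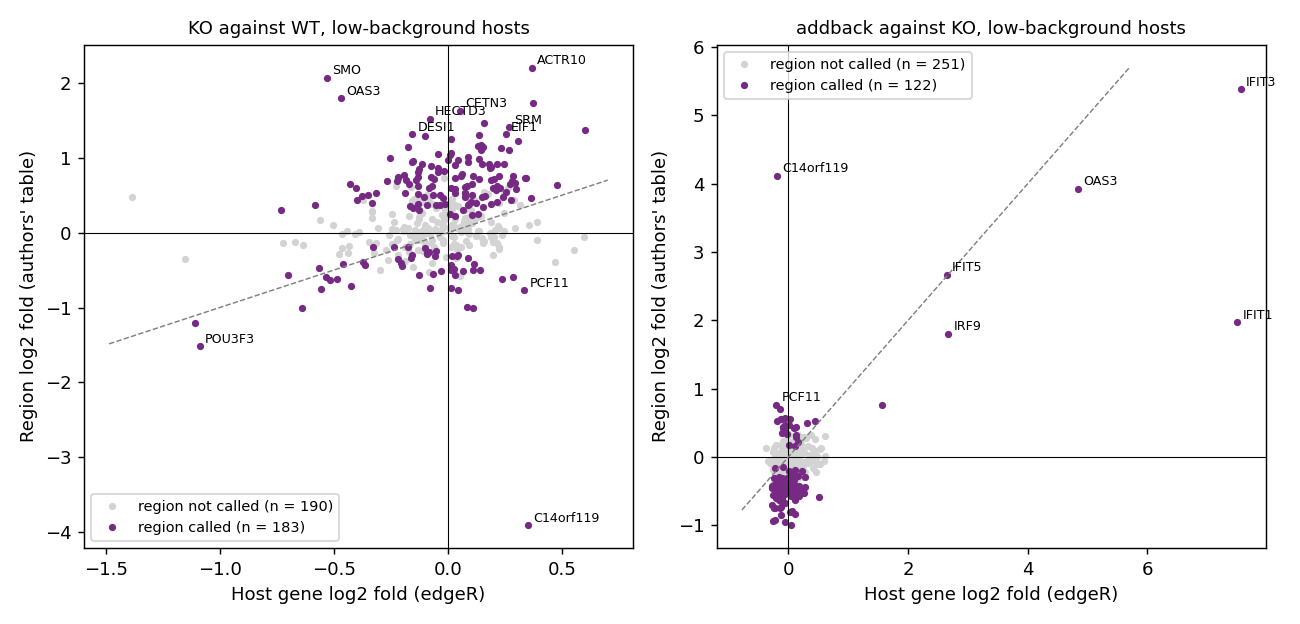
Log2 fold of the region (authors' table, vertical axis) against log2 fold of its host gene (edgeR, horizontal axis) for the 373 short regions with signal and a low-background host, left for KO against WT and right for addback against KO. Purple points are called regions, grey points are not, the dashed line marks equal folds, and the named regions above it on the left have hosts within about 1 log2 unit of 0.

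The second comparison sets addback, in which UBE3D RNA stood far above its WT level, against KO over the same regions. In addback against KO, 84 members were higher and 104 lower in the authors' deposited table, where 18.6% of all regions tested were higher and 15.5% lower. Either direction made up 27.9% of the 673 listed members, beside 34.1% of all regions. A fold of at least 1 was reached by 8 members in the higher direction and 1 in the lower, against 1.04% and 0.376% of all regions. The median fold of members with signal was -0.05, against -0.00 over all regions with signal. The folds of the 2 region tables may be on different scales. The fold divided by its standard error gives back the authors' deposited p-value (within 0.01 on the log10 scale) in 100% of regions for KO against WT and in 7.43% for addback against KO. No source used here says how the folds were estimated, so sizes are not compared between the comparisons, which also use the same KO libraries. Regions with no gene at the far end had 41 higher and 54 lower calls, those ending at a gene on the same strand 35 and 42, and those ending at an opposite-strand gene 8 and 8. The corresponding counts in the whole table, members included, were 198 and 202 of 1166 regions, 190 and 132 of 829, and 57 and 38 of the 400 listed. Low-background hosts had 30 regions higher and 92 lower, other hosts 54 and 12. This last split was not made over all regions, so nothing particular to the short regions is read from it.

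The 10 largest falls in addback against KO, all by the authors' deposited table, lie behind HECTD3 (-1.003 ± 0.28), DESI1 (-0.95 ± 0.09), ACTR10 (-0.95 ± 0.44), SRM (-0.93 ± 0.14), CETN3 (-0.85 ± 0.21), PTPRA and VPS16 (-0.84 ± 0.12), EIF1 (-0.81 ± 0.12), NARF (-0.79 ± 0.11), EIF3H (-0.75 ± 0.16) and PPIL1, a spliceosomal cyclophilin gene (-0.75 ± 0.17). In KO against WT the authors' deposited table gave NARF 0.71 ± 0.10 and PPIL1 0.53 ± 0.15, both called. NARF, which binds prelamin A, is the host of the shortest region (chr17:82488268-82492267, plus strand). Addback levels of the hosts were 54.7, 61.8 and 55.3 CPM for HECTD3 and 78.4, 75.1 and 71.1 for DESI1, both overlapping KO. EIF1 stood at 453, 438 and 407 CPM in addback and also overlapped KO, while SRM at 115, 114 and 99.5 CPM lay below all KO libraries. These overlaps rest on the scaling too, since factors from all genes would shift log2 folds of addback against KO by -0.31 on the whole. Smaller falls were found behind HIST2H2BC (-0.57 ± 0.07), SMO (-0.50 ± 0.24) and HOXD11 (-0.15 ± 0.06), the member with the highest base mean, in the authors' deposited table.

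**Figure D4:**
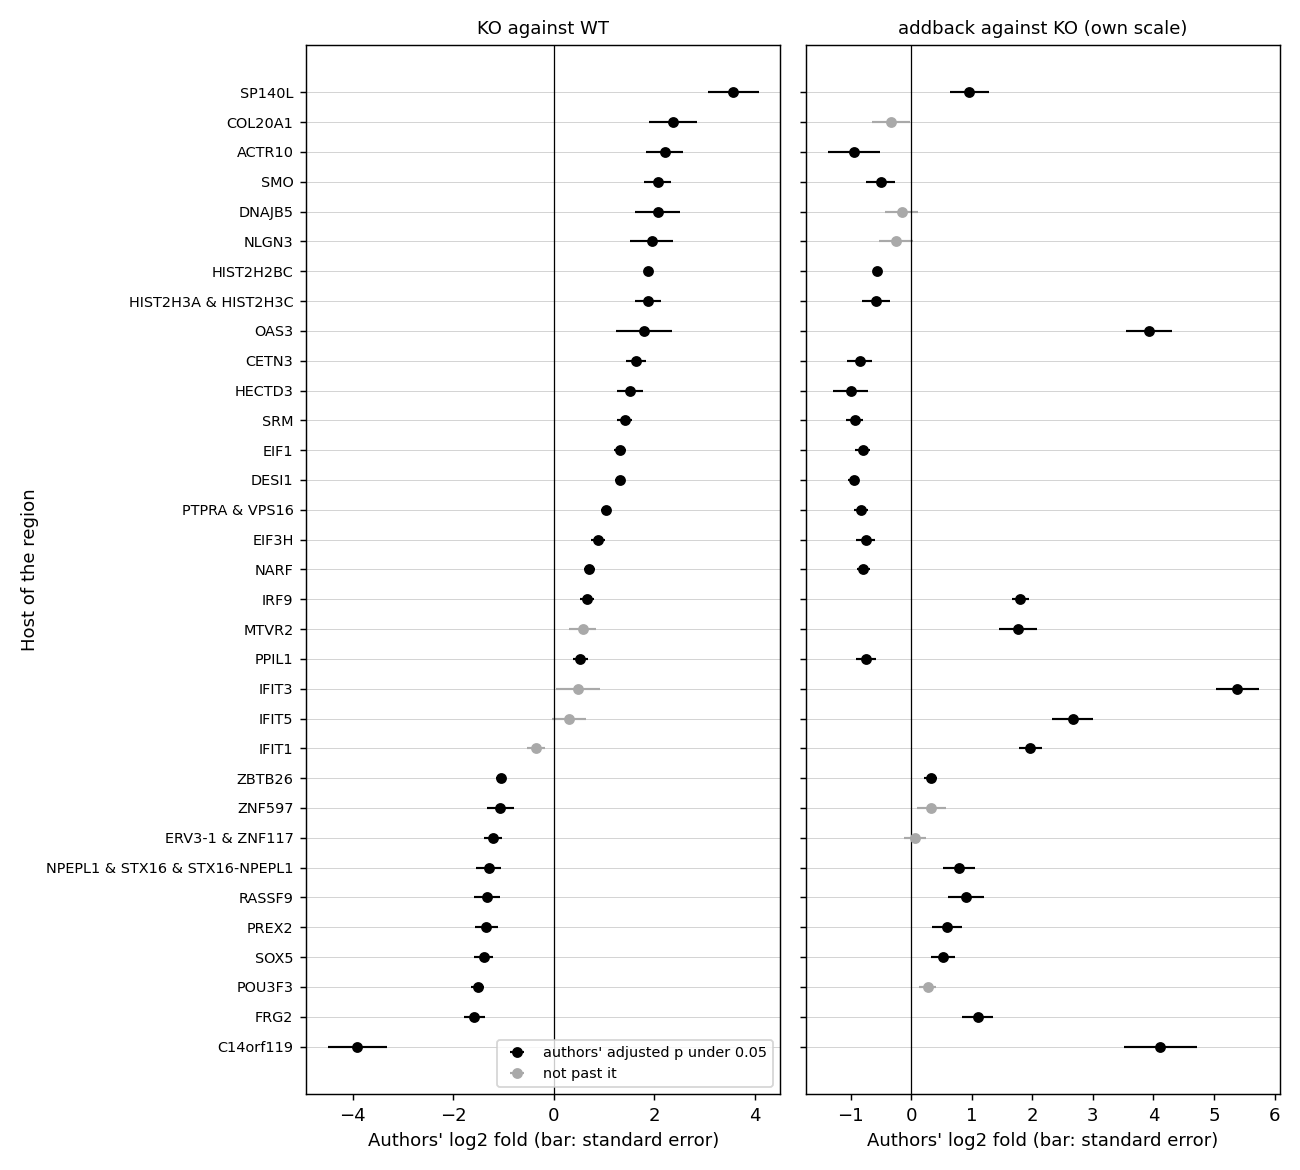
Authors' log2 fold with its standard error for the short regions named by rank, left KO against WT and right addback against KO, whose folds may be on another scale. Black points passed the authors' adjusted p of 0.05, grey points did not, and the same KO libraries enter both panels.

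Interferon-stimulated genes are those that cells switch on in answer to interferon or foreign nucleic acid. The 6 members on the list of such genes used here were all higher in addback than in KO in the authors' deposited table: IFIT3 by 5.38 ± 0.35, OAS3 by 3.92 ± 0.38, IFIT5 by 2.66 ± 0.34, IFIT1 by 1.97 ± 0.18, IRF9 by 1.799 ± 0.14 and IRF1 by 0.75 ± 0.31. The list does not hold IFITM1 and IFITM3, which are members too and are named here after their values were seen. Their regions are near-empty, with base means of 0.218 and 0.352 in the authors' deposited table for KO against WT, and IFITM3 stood at 0.05 ± 0.45 in addback against KO, not called, where IFITM1 is not listed. Host RNA of the 6 listed members rose as well. IFIT3, an effector that binds other IFIT proteins, was at 2.07, 2.37 and 2.23 CPM in KO, 4.04, 4.85 and 9.24 in WT and 437, 309.7 and 514 in addback (edgeR log2 fold of addback against KO 7.56 ± 0.32, adjusted p = 6.47e-06). IFIT1, which recognizes RNA with an unmethylated cap, was at 4.89, 4.08 and 4.17 CPM in KO, 8.04, 8.32 and 13.4 in WT and 817, 613 and 939 in addback (edgeR log2 fold 7.50 ± 0.25, adjusted p = 1.23e-06). Addback stood far above both other groups for these genes, and no library overlaps. IRF9, the DNA-binding subunit of the interferon-activated ISGF3 complex, went from 17.5, 16.2 and 16.8 CPM in KO to 107, 99.8 and 114 in addback, with 17.7, 22.0 and 17.0 in WT (edgeR log2 fold 2.67 ± 0.10, adjusted p = 2.38e-06). OAS3 RNA rose by 4.84 ± 0.24, IFIT5 RNA by 2.65 ± 0.09 and the transcription factor IRF1 by 1.56 ± 0.13 on the same scale, all called by edgeR. For IFIT5 the region's log2 fold was 2.66 and the host's 2.65, and for IFIT1 the region's fold was 1.97 and the host's 7.50, but the region folds may be on another scale than the host folds, so these sizes are not compared. In KO against WT only the regions of IRF9 (0.66 ± 0.14) and OAS3 of these 6 were called higher in the authors' deposited table.

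**Figure D5:**
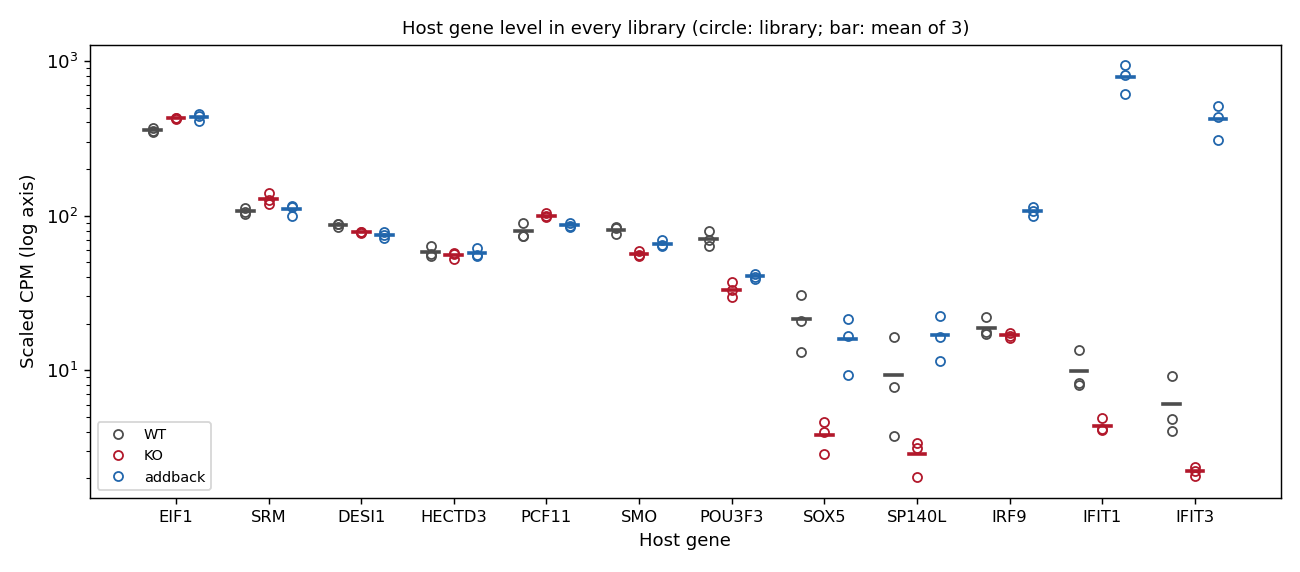
Scaled CPM on a log axis for 12 hosts of short regions in each of the 9 libraries (circles) with the mean of 3 (bars), WT in grey, KO in red and addback in blue. IRF9, IFIT1 and IFIT3 are far higher in the 3 addback libraries, POU3F3 and SOX5 are lowest in KO, and HECTD3 overlaps between the groups.

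Other large rises in addback lay behind C14orf119 (4.11 ± 0.60), MTVR2 (1.76 ± 0.32), FRG2 (1.10 ± 0.26), SP140L (0.96 ± 0.32) and RASSF9 (0.90 ± 0.30), by the authors' deposited table. SP140L was thus called higher in both comparisons, and its host RNA was at 11.5, 16.4 and 22.6 CPM in addback. For C14orf119 the host stood at 32.6, 33.2 and 34.8 CPM in addback, below every KO library, while its region, with the LMLN2 exon in it, was higher. The PCF11 region rose by 0.76 ± 0.13 (adjusted p = 1.1e-08 in the authors' deposited table), with PCF11 RNA at 84.8, 86.3 and 89.2 CPM in addback, below all KO libraries. Among the called regions with the highest base mean, NCR3LG1, which encodes a ligand of a natural killer cell receptor, had 0.32 ± 0.07 and the mitotic gene GTSE1 -0.17 ± 0.07 in the authors' deposited table.

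These lists are read as before, beside 18.6% of all regions higher and 15.5% lower. By host group in addback against KO, 3 of the 5 regions behind translation factor and tRNA synthetase genes fell and none rose in the authors' deposited table. They were EIF1, EIF3H and EIF2B3, the last by 0.34 with a standard error of 0.14. Mitochondrial ribosome and respiratory chain hosts had 3 falls and no rise among 14 listed regions, with MRPL12 at -0.63 ± 0.09 and the complex I gene NDUFS1 at -0.28 ± 0.06 in the authors' deposited table. Zinc finger hosts had 5 rises and 1 fall among 23, the last again ZNF593 at -0.45 ± 0.19 in the authors' deposited table. Transporter hosts had 3 rises and no fall among 16 listed, with the zinc exporter gene SLC30A1 at 0.52 ± 0.07 in the authors' deposited table. Chaperone hosts had 1 of each among 10, kinase and phosphatase hosts 2 rises and 4 falls among 13, and RNA binding hosts 3 rises and 2 falls among 12. The ribosomal protein, cell cycle and ATF4 regions were not called, with RPL15 at -0.33 ± 0.22 and ATF4 at -0.10 ± 0.19 in the authors' deposited table.

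Hosts in addback against KO were called higher 203 times and lower 95 times by edgeR, where 49.2% of all genes were higher and 7.62% lower. With factors from all genes the counts were 93 and 279. Low-background hosts alone had 81 higher and 87 lower calls, beside 18.4% and 20.0% of all low-background genes. Leaving out KO replicate 1, 2 or 3 gave 129, 117 and 133 higher hosts, and leaving out addback replicate 2 or 3 gave 128 and 124. Of the 84 regions higher in addback 40 had a higher host, 4 a lower one and 40 one that was not called. Of 102 lower regions with a tested host 12 hosts were higher, 26 lower and 64 not called, and the median host fold was -0.02 on the log2 scale. Region minus host had a median of -0.26 over 602 members, 0.0462 with host folds scaled over all genes and 0.0144 with those of the authors' deposited table of genes. In addback against WT, 47 hosts were higher and 58 lower by edgeR, beside 4.37% and 4.89% of all genes. With the replicate number as a block, since libraries of the same number vary together in these groups, 71 were higher and 76 lower. Without addback replicate 1 there were 28 higher hosts, and without addback replicate 2 or WT replicate 1 there were 37 and 38 lower ones.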

How the data were processed

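The series holds poly(A) RNA from 9 HEK293 samples, 3 per group. Per the submitters' processing notes the tools named were cutadapt 1.8.1, STAR 2.5.2b and DESeq2 with hg38; what each was used for, the gene counter and the region caller are not given in the sources. The authors deposited a table of counts per gene and library, in which the columns marked KO.U were taken as addback because the authors' comparison tables call that group KO-UBE3D. The authors' deposited region tables give a base mean (signal), a log2 fold with its standard error, in the KO against WT table a test statistic (score), and raw and adjusted p-values, but no library values. The libraries and scaling behind the base mean are not stated. Region lengths are in bases as deposited by the authors, and starts were raised by 1 base to count from 1. No sample column was left unused (0).

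Host counts were tested with edgeR 4.0.16 in R 4.3.3: filterByExpr left 21994 genes, and 1 quasi-likelihood fit over 9 libraries with genotype as the only term used TMM factors computed on 7501 low-background genes. Each library's background is the median over 586 tissue-restricted genes of the count per coding kilobase. Calls used a Benjamini-Hochberg adjusted p under 0.05. On simulated data with 200 changed genes among 21994 for KO against WT, 200 were recovered. The simulation used the same scaling factors as its fit and no difference in library background between groups, so it cannot test the scaling. Scaled CPM use the same factors. Counts of replicate pairs differed beyond sampling noise (chi-square per degree of freedom 1.95 to 42.7). Same-numbered libraries correlated at 0.89, 0.60 and 0.74 in addback against WT over all tested genes. Over low-background genes the values were 0.57, 0.29 and 0.63. The main fit left this pairing out, and only the counts with the replicate block take it in. In the comparisons with KO they correlated at -0.05 to 0.02 over all tested genes and at 0.01 to 0.19 over low-background genes.

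Hosts and far ends come from the exon positions given with the authors' deposited gene counts. Coding exons and the transcript ends printed above come from GENCODE v29. Members and lists were chosen with earlier results of these data known. Named in the text are the 10 called members with the most positive and most negative fold, the 5 called with the highest base mean, the 5 called in both comparisons with the largest smaller fold (a rank across tables whose folds may differ in scale, so not listed as a set), the shortest and longest, and the called members of each list with the highest base mean; some of these are not reported here. Alternatives tried were other scalings, no count filter, DESeq2 1.42.0, each library left out, a replicate block, and other limits of length, fold, adjusted p and base mean.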

Additional observations from a re-analysis of the deposited data

How the results depend on the processing

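Host counts followed the scaling. In KO against WT the 122 higher hosts became 300 with TMM factors from all genes, 199 with upper quartile factors, 275 with DESeq2 size factors and 277 with the DESeq2 Wald test, and the 245 lower ones 86, 116 (size factors), 130 (Wald test) and 114 (low-background hosts only). In addback against KO the 203 higher became 93 (TMM), 105 (size factors), 110 (Wald test) and 81 (low-background), with 117 to 233 when 1 library was left out, and the 95 lower became 279, 290 and 297 in the first 3 of these and 186 with upper quartile factors. In addback against WT the 47 higher became 21 (TMM) and 23 (size factors), with 28 to 52 leaving out 1 library, and the 58 lower became 11 and 23, with 37 to 56. With the replicate block 71 hosts were higher in addback against WT, and in the comparisons with KO, where the numbers do not pair the libraries, the block changed counts by under 1.5 times (133 and 280, 246 and 108). Region calls past a log2 fold of 1 were 48 higher and 15 lower in KO against WT and 8 and 1 in addback against KO. A length limit of 7000 bases gave 103, 71, 49 and 61, and an adjusted p under 0.01 left 64 lower in addback against KO. The median of region minus host turned from 0.32 to -0.0300 (all-gene TMM) and moved to 0.0472 (authors' gene table) for KO against WT, and turned from -0.26 to 0.0462 and 0.0144 for addback against KO. Beyond the construction of each alternative, the cause was not tested. The host folds of SMO (-0.20) and UBE3D (-0.28) lost their call with all-gene TMM, and those of the other hosts whose fold is given kept direction and call in the alternatives run. Members with signal that were not called had a median base mean of 125 and a median standard error of 0.21 in KO against WT, against 201 and 0.17 for called ones, and whether depth bears on the missing calls was not tested.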

Other observations

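On chromosome 9, a set noticed after the values were seen, 13 of 29 short regions were lower in KO than in WT and 2 higher in the authors' deposited table, and 8 of the 29 are near-empty. Over all regions 25.0% were lower and 24.8% higher. The median log2 fold of the 21 with signal was -0.48, and that of their hosts -0.67 by edgeR. Hosts of all members with signal had a median of -0.13, and factors from all genes would shift host folds up by 0.34 on the whole. The 716 members elsewhere had 170 higher and 113 lower. Chosen after their values were seen, the lower ones include ZBTB26 (-1.05), KIAA1958 (-1.03), STRBP, which encodes a spermatid RNA-binding protein (-1.01), the kinesin gene KIF27 (-0.98), GAPVD1 (-0.75) and the exosome subunit gene EXOSC2 (-0.71), and the higher ones are DNAJB5 (2.07) and SURF6 (0.48), by the authors' deposited table. Regions of chromosome 9 that are no members had 40 lower and 4 higher calls among 56. In addback against KO the 24 listed members of chromosome 9 had 4 higher and 2 lower, beside 18.6% and 15.5% of all regions.

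Annotated coding bases of another gene lie in 32 members, and these had 4 higher and 11 lower calls in KO against WT and 9 higher and 2 lower in addback against KO in the authors' deposited table. The 713 members without such bases had 168 higher and 115 lower, and 75 higher and 102 lower. Over all regions 24.8% were higher and 25.0% lower in KO against WT, and 18.6% and 15.5% in addback against KO. The median log2 fold with signal in KO against WT was -0.27 with such bases and 0.10 without. Their hosts had medians of -0.31 and -0.13 by edgeR. In addback against KO, regions with such bases had a median of 0.22 and their hosts 0.24. Whether the coding bases or the library background over them bear on the folds was not tested. Chosen after their values were seen, examples are CCDC78, with 768 bases of FAM173A (-0.89), NPLOC4, with 110 bases of FAAP100 (-0.77), and RASAL2, with 666 bases of CLEC20A (0.96), by the authors' deposited table.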
